A study of Homo sapiens with 4 samples.

Results

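CTCF binding sites that lie on acetylated chromatin were described in DU145, an established human line of prostate cancer cells that had spread to the brain. The sites are the CTCF peaks whose summit, the base with the strongest signal, falls inside a peak of histone H3 acetylated at lysine 27 (H3K27ac). The rule picked 3036 of 36152 CTCF peaks, 8.40% of the list (Wilson 95% interval 8.12 to 8.69). They lay in 2853 of 50364 H3K27ac peaks, which are called hosts below. The members were chosen by the measured positions of both kinds of peak, so this share and their presence inside H3K27ac are a description and not a finding.

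The 4 libraries are DU145 chromatin pulled down with an antibody to CTCF, DU145 chromatin pulled down with an antibody to H3K27ac, and unprecipitated (input) chromatin from DU145 cells and from LNCaP, another prostate cancer line. No drug or genotype is given for any of them, and all were fixed with formaldehyde and sheared by sonication. Peak lists of the CTCF and the H3K27ac library were analysed, 1 library each, so no value has a replicate error and no test of a difference was possible. Intervals cover counting error only. Positions are in hg19 and count from 1.

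CTCF is a zinc finger protein that binds DNA at a long motif, acts at insulators, and halts the cohesin complex at the anchors of chromatin loops. At many of its sites the bound DNA is free of nucleosomes, and nucleosomes lie in a regular array on both sides. H3K27ac is carried by nucleosomes at active promoters and enhancers, so its signal comes from DNA wrapped around histones. Some CTCF sites lie in promoters and enhancers, others far from both.

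In most members the CTCF summit and the H3K27ac summit of the same region did not coincide, and at strong CTCF sites they coincided least often. The share that an even spread along the host would give was not computed, so the shares over all members do not show avoidance. Over all members the median distance between the summits was 274 bases (95% interval 266 to 281), with quartiles of 169 and 490 bases. In 366 of 3036 members (12.1%) the summits were within 100 bases of each other, and in 44 they were within 10 bases. A further 1710 members (56.3%) had their CTCF summit over 100 and up to 400 bases from the H3K27ac summit. In steps of 100 bases, the share was 11.9% at 0 to 100 bases, 20.4% at 100 to 200, 23.4% at 200 to 300 and 12.7% at 300 to 400. The most frequent distance was thus not 0 but between 200 and 300 bases. The CTCF summit had the lower coordinate in 1510 members (49.7%, interval 48.0 to 51.5), so neither side was preferred by coordinate. The orientation of motifs or genes was not used, so a preferred side relative to them would not show here.

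This arrangement differed with the strength of the CTCF peak. Strength is the authors' fold enrichment, the signal at the summit over its local background, and the strongest 20% and weakest 20% are those of the whole CTCF list. Fold enrichment played no part in the choice of members. Among the 704 members from the strongest 20%, 37 summits (5.26%, interval 3.84 to 7.16) were within 100 bases of the H3K27ac summit. Among the 850 members from the weakest 20%, 165 were (19.4%, interval 16.9 to 22.2). At 200 to 300 bases the order turned, with 213 strong members (30.3%) and 159 weak members (18.7%). Strong members thus formed a pair of maxima with a trough between them, and weak members over all hosts formed a broad distribution, with 19.3%, 19.6% and 18.7% in the first 3 steps of 100 bases. The 1482 members of middle strength lay between, with 11.1% within 100 bases.

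**Figure D1:**
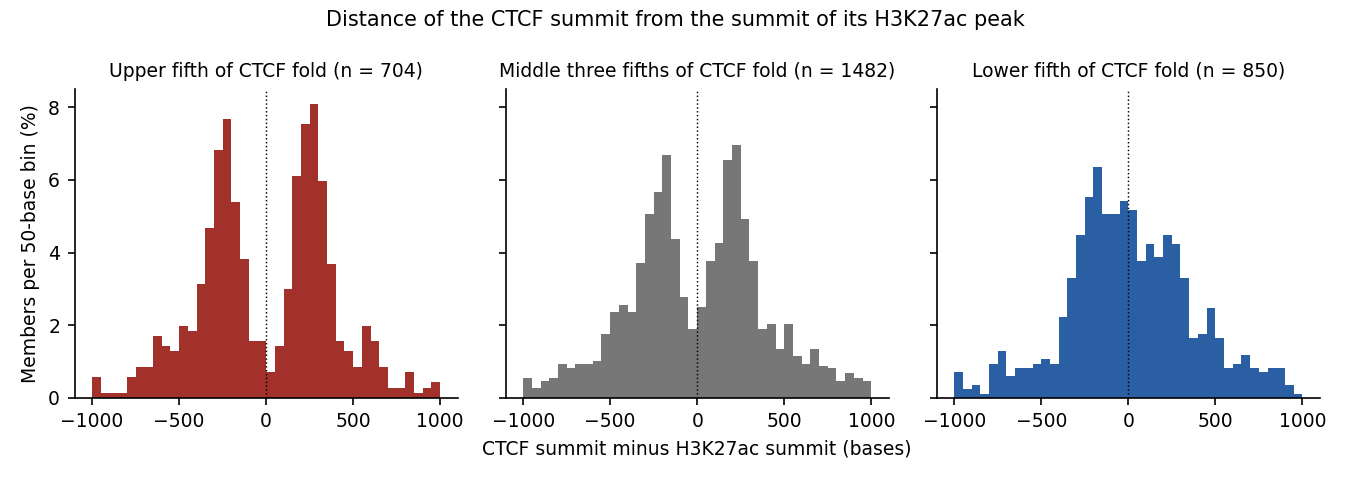
Signed distance from the H3K27ac summit to the CTCF summit of the same region (x axis, bases, out to 1000 on either side) against the percent of members in each 50-base bin (y axis), for members from the strongest 20%, the middle 60% and the weakest 20% of the CTCF list by fold enrichment. Strong members pile up between 200 and 300 bases on both sides and are scarce at 0, while weak members are spread across the centre. The 244 members farther apart than 1000 bases are not drawn.

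The difference between strong and weak members was also present where hosts were wide enough to leave room on both sides. In hosts over 1 kb, 14 of 472 strong members (2.97%, interval 1.77 to 4.92) and 68 of 557 weak members (12.2%, interval 9.75 to 15.2) were within 100 bases of the H3K27ac summit. In these wide hosts the shares of weak members were 12.2% at 0 to 100 bases, 13.1% at 100 to 200 (interval 10.6 to 16.2) and 17.4% at 200 to 300 (interval 14.5 to 20.8). These intervals overlap, so a dip of weak members at the centre was not clear. The shares of strong members in the same steps were 2.97%, 8.47% and 27.3%. The difference was present at both levels of local background. The background is the one the authors' caller used, and which library it came from is not given. Where it was above its genome-wide level, the shares were 4.78% of strong and 18.4% of weak members. At the genome-wide level they were 6.63% and 22.6% of strong and weak members. The median number of fragments at the summit was 92 in strong and 20 in weak members, and its part in the difference was not tested. With both lists limited to a −log10 q of 10 or more, 4.38% of strong members (interval 3.04 to 6.25) and 6.45% of weak members (interval 2.99 to 13.4) were within 100 bases, and these intervals overlap. Among peaks and hosts that reach this threshold the contrast was therefore not detectable. The interval of weak members there lay below that of all weak members (19.4%, interval 16.9 to 22.2), while the share of strong members stayed near its 5.26%. A contrast of the size seen over all members was thus not present at this threshold. The threshold leaves few weak members and so a wide interval, and these lists cannot tell a smaller contrast from none.

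Some strong sites did sit on the H3K27ac summit. Of the strongest 10% of members on assembled chromosomes, the closest was at chromosome 1, 154934203 to 154934667. It had a fold of 27.8 (124 fragments) and 2 bases between the summits. The next was at chromosome 17, 48277769 to 48278371, with a fold of 25.4 and 4 bases between the summits. The third was at chromosome 18, 12271638 to 12272402, with a fold of 26.0 and 6 bases between the summits. Their CTCF peaks were 465, 603 and 765 bases wide, and the chromosome 17 peak was wider than its host of 516 bases.

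Whether a CTCF summit sat at the centre or the edge depended on the width of the host. Over all members, 1607 summits (52.9%, interval 51.2 to 54.7) lay in the central 50% of the host's length. The outer 10% at either end, together 20% of the length, held 683 summits (22.5%, interval 21.0 to 24.0). The median distance to the nearer edge was 361.5 bases (interval 343 to 378). These totals are close to an even spread along the host, but they average over classes that differ.

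In the narrowest hosts, up to 500 bases, summits lay near the ends more often than an even spread would give. Of 275 members, 72 (26.2%, interval 21.3 to 31.7) lay in the central 50% and 103 (37.5%) in the outer 10% at either end. In hosts of 500 to 1000 bases the central share was 43.3% of 729 members. In hosts of 1 to 2 kb it was 61.4% of 1165 (interval 58.5 to 64.1), and in hosts of 2 to 4 kb 60.7% of 667 (interval 57.0 to 64.4). In the 200 members in hosts over 4 kb it was 49.5%, with an interval of 42.6 to 56.4 that includes an even spread. Between 1 and 2 kb there was also a gap between centre and edge: the 10% of length next to either end held 10.0% and 10.1% of the summits, the 10% after those 5.32% and 4.72%, and the middle pair 12.4% and 13.8%.

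**Figure D2:**
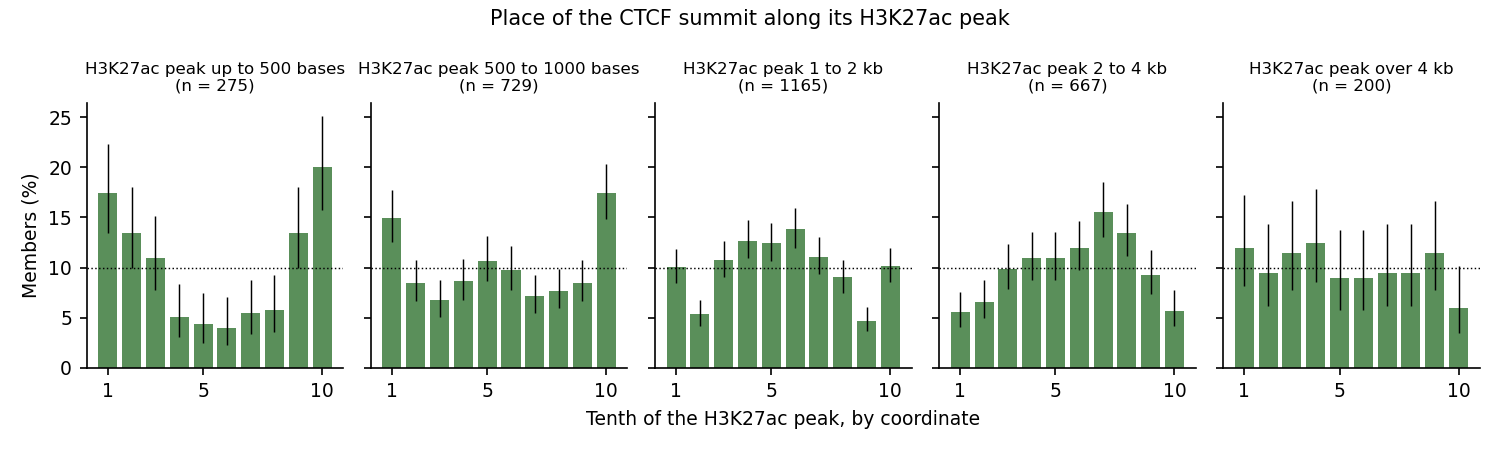
Percent of members (y axis) whose CTCF summit lies in each 10% of the length of its H3K27ac peak, by coordinate (x axis), in 5 classes of H3K27ac peak width; error bars are Wilson 95% intervals and the dotted line is an even spread. Summits are most frequent at the ends of peaks up to 500 bases. In peaks of 1 to 2 kb they are most frequent nearer the middle, with a dip in the 10% after the outermost 10% at each end.

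Measured in bases, strong CTCF sites were sparse in a zone from 100 to 250 bases inside the H3K27ac edge. The density of summits from the strongest 20% was 32.4 per Mb in the first 50 bases inside an edge (interval 27.6 to 37.7). It was 15.3 per Mb from 50 to 100 bases, 5.20 from 100 to 150 and 2.70 from 150 to 200 (11 summits, interval 1.35 to 4.83). Farther in it was higher again, at 10.8 per Mb from 250 to 300 bases and 25.8 from 400 to 450 (interval 18.5 to 35.1). Steps farther in rest on wider H3K27ac peaks only, with 5.04 Mb at 0 to 50 bases and 1.59 Mb at 400 to 450. No density within 1 width class was computed, so the part of peak width in this rise was not tested. Summits of the weakest 20% had a density of 15.9 per Mb in the first 50 bases inside, 10.1 from 50 to 100 (interval 7.54 to 13.3), 15.8 from 100 to 150 and 12.5 from 150 to 200 (interval 9.32 to 16.5). From 300 to 500 bases their steps lay between 20.2 and 36.4 per Mb, with 36.4 from 450 to 500 (interval 27.0 to 47.9).

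Outside the edge, strong sites were denser still. Their density was 32.4 per Mb in the first 50 bases inside and 60.4 in the first 50 bases outside, and it fell to 5.38 per Mb at 300 to 350 bases outside. For weak sites the values on either side of the edge were 15.9 inside and 18.3 outside, with intervals that overlap. Within 100 bases of an edge were 240 of 704 strong members (34.1%, interval 30.7 to 37.7) and 131 of 850 weak members (15.4%, interval 13.1 to 17.99). Both shares were lower in hosts over 1 kb, at 18.01% of strong and 5.92% of weak members. With H3K27ac peaks up to 500 bases apart joined, the share of strong members was 18.9%.

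**Figure D3:**
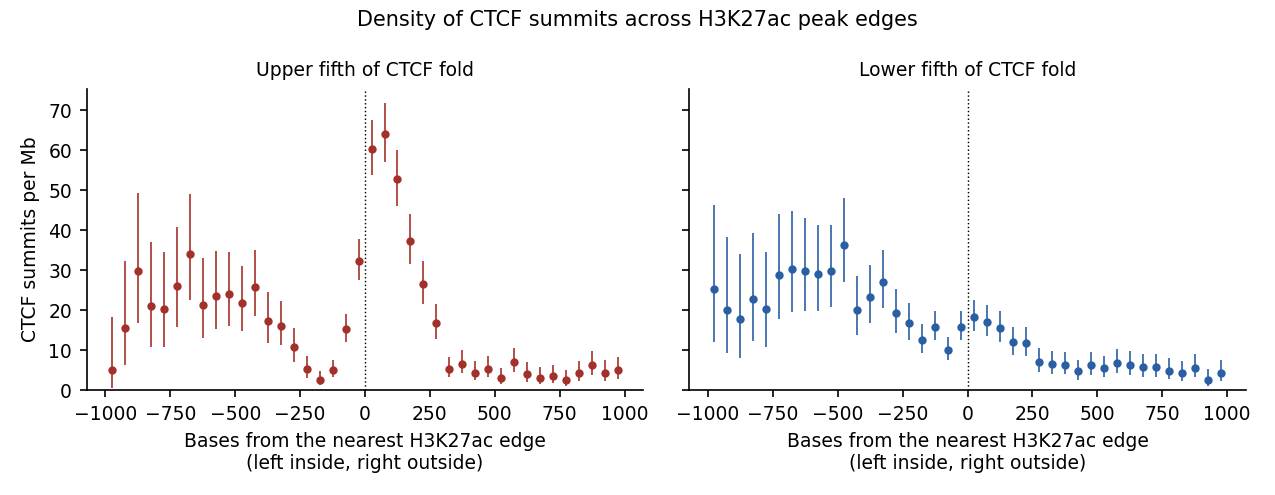
Density of CTCF summits (y axis, per Mb) in 50-base steps from the nearest H3K27ac edge (x axis, inside to the left, outside to the right), for the strongest and the weakest 20% of the CTCF list; error bars are exact Poisson 95% intervals. Strong sites drop to 2.70 per Mb at 150 to 200 bases inside and reach 64.0 per Mb just outside, while weak sites lie between 10.1 and 36.4 per Mb inside and reach 18.3 just outside.

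The border of the rule is sharp to the base, and strong sites lay on both sides of it. At chromosome 1, 220863451 to 220863848 (fold enrichment 32.9), chromosome 17, 36714349 to 36714648 (fold 25.1), and chromosome 8, 141646205 to 141646452 (fold 18.1), the summit was on the outermost base of the host; these are the strongest of the members that close to an edge. The strongest just outside, 1 base past an edge, were chromosome 9, 127615092 to 127615776 (fold 36.7), chromosome 8, 42948402 to 42948715 (fold 28.7), and chromosome 14, 74195426 to 74195769 (fold 25.7). A further 2085 CTCF peaks shared at least 1 base with an H3K27ac peak but had their summit outside it.

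Some of the edge sites lay beside a short break between acetylated peaks. Among members within 100 bases of an edge, 251 of 738 (34.0%, interval 30.7 to 37.5) had another H3K27ac peak within 500 bases beyond that edge. Among members farther in, the share was 25.1% of 2298 (interval 23.4 to 26.9), measured from their nearer edge. Within 1 class of strength the intervals overlapped. Strong members had 25.8% near an edge (interval 20.7 to 31.7) and 20.7% farther in (interval 17.3 to 24.6), and weak members had 35.1% near an edge (interval 27.5 to 43.6) and 27.8% farther in (interval 24.7 to 31.2). Over all H3K27ac peaks 46.8% had another within 500 bases on either side, and the share was 42.8% in hosts and 47.1% in the other H3K27ac peaks, so hosts were not more broken up in this respect.

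Hosts were wide and strong H3K27ac peaks. Their median width was 1316 bases (interval 1285 to 1357, n = 2853) and that of the other H3K27ac peaks 544 bases (interval 540 to 548, n = 47511). Over all H3K27ac peaks 43.4% reached a −log10 q of 10, and the share was 86.7% in hosts and 40.8% in the others. A width of 3 kb or more was found in 2.45% of all H3K27ac peaks, in 11.04% of hosts (315 peaks) and in 1.93% of the others. The median fold enrichment of H3K27ac was 12.6 in hosts and 4.43 in the others. A wide peak has more room for a summit, so the widths follow in part from the rule, and fold and width of hosts go together (Spearman rho 0.66 over 3036 members, which share hosts and both libraries).

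The CTCF peaks themselves were close in median width to those elsewhere. Members had a median width of 291 bases (interval 286 to 297, quartiles 222 and 383), and CTCF peaks outside H3K27ac 275 bases (interval 274 to 276, quartiles 221 and 347). Widths over 1 kb were rare but more frequent in members, at 29 of 3036 (0.96%, interval 0.67 to 1.37). Outside they were found in 51 of 33116 (0.15%, interval 0.12 to 0.20). A member took up a median of 21.99% of the width of its host. In 2137 members (70.4%) the whole CTCF peak lay inside the host, in 859 (28.3%) it extended past 1 edge, and in 40 (1.32%) past both.

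In strength, members were drawn more from both ends of the CTCF list than from its middle. Among CTCF peaks at the genome-wide background level, this was clear for the weak end only, as given below. The median fold enrichment was 8.72 in members (interval 8.40 to 8.98) and 9.59 in CTCF peaks outside (interval 9.50 to 9.72). The lowest 10% of members were below 4.31 and the highest 10% above 21.6, and the same limits outside were 4.89 and 19.7. When the list was cut into 10 groups of equal size by fold, the share of members was lowest in the sixth, at 5.75% (interval 5.04 to 6.56). Of all CTCF peaks, 79.8% had a −log10 q of at least 10, and the share was 72.6% in members and 80.4% outside. The median number of fragments at the summit was 41 in members and 45 outside.

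**Figure D4:**
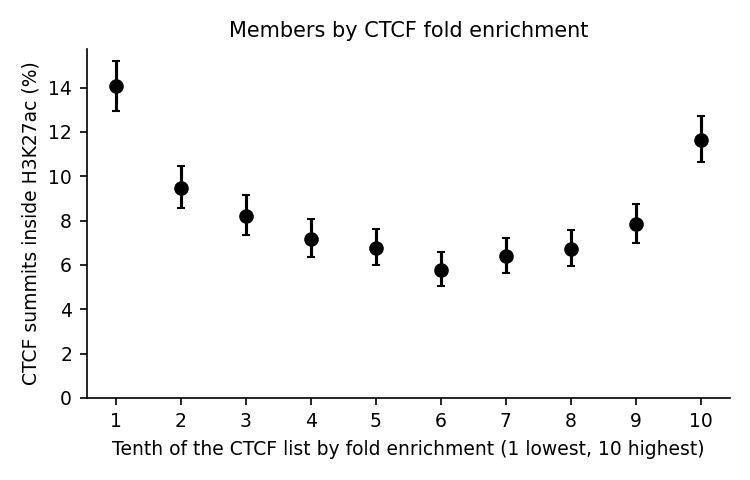
Percent of CTCF summits inside an H3K27ac peak (y axis) in 10 groups of equal size by CTCF fold enrichment, lowest to highest (x axis); error bars are Wilson 95% intervals. The share is 14.1% in the weakest group, 5.75% in the sixth and 11.6% in the strongest.

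Local background, from a library that is not given, was raised at somewhat more members. It was above the genome-wide level at 68.9% of all CTCF peaks, at 74.7% of members (interval 73.2 to 76.3) and at 68.3% of peaks outside. The share of members was 9.12% of CTCF peaks with a raised background and 6.81% of those at the genome-wide level. Within the strongest 20% the share was 11.4% with a raised background and 6.89% without, and within the weakest 20% it was 12.9% with and 9.10% without. The part of this in the number of members was not tested.

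The strength of a CTCF peak and that of its host were nearly unrelated across members. Spearman rho between the fold enrichments was 0.09, and between CTCF fold and host width −0.01 (n = 3036 members from the same libraries). Hosts of strong members had a median H3K27ac fold of 14.4 (interval 13.1 to 15.2) and hosts of weak members 12.2 (interval 11.3 to 13.1). Their median widths, 1335.5 and 1383 bases for strong and weak members, had overlapping intervals.

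The strongest members show how loosely these quantities are tied. The highest fold enrichment of CTCF was 44.7, from 155 fragments (exact Poisson 95% interval 132 to 181), at chromosome 12, 49208320 to 49208989. Its summit was at 54.6% of the length of a 1315-base host with an H3K27ac fold of 8.14, and 370 bases from the H3K27ac summit. The second, at chromosome 9, 139686066 to 139686829 (fold 43.0, 168 fragments), lay at 49.3% of a 1203-base host with an H3K27ac fold of 41.1, and 306 bases from its summit. The third, at chromosome 2, 26726019 to 26726673 (fold 41.6), was 414 bases from the summit of a host with an H3K27ac fold of 6.16. The fourth, at chromosome 11, 72145000 to 72145596 (fold 39.1), was 139 bases from that of a host with a fold of 13.4. The fifth, at chromosome 16, 56998303 to 56998892 (fold 38.7), was 265 bases from that of a host with a fold of 3.68. In all 5 the CTCF summit lay in the central 50% of the host, and in 4 of them it was over 200 bases from the H3K27ac summit.

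The 3 hosts with the highest H3K27ac fold, all wide peaks, are given with their strongest CTCF site. The host with the highest H3K27ac fold, 73.3, spans 9460 bases at chromosome 12, 52537750 to 52547209. Its CTCF site, at 52545853 to 52546244, had a fold of 30.9 and lay 5154 bases from the H3K27ac summit. The host at chromosome 19, 797279 to 802729, with an H3K27ac fold of 71.6, held a CTCF site of fold 6.07 (23 fragments) 1908 bases from its summit. The host at chromosome 11, 65656105 to 65667950, with an H3K27ac fold of 65.1, held 2 members, of which the stronger, at 65659322 to 65659583, had a fold of 7.31 and lay 8115 bases from the summit.

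Members lay closer to another CTCF summit than the other CTCF peaks did. The median distance to the next CTCF summit was 9.26 kb for members (interval 8.79 to 9.96) and 16.4 kb for CTCF peaks outside (interval 16.0 to 16.7). Over all CTCF peaks 11.0% had another summit within 2 kb. The share was 683 of 3036 members (22.5%, interval 21.0 to 24.0) and 9.91% of those outside. No other summit within 50 kb was found for 346 members (11.4%) and for 20.2% outside. The nearest other summit was itself a member for 24.4% of members and for 7.06% of CTCF peaks outside. Weak members had a neighbour within 2 kb more often, at 28.1% (interval 25.2 to 31.2), and strong members less often, at 19.2% (interval 16.4 to 22.2). The same shares over all weak and all strong CTCF peaks were not computed, so this difference cannot be called particular to members. No shift or matched positions were used, so how far the density of CTCF in acetylated neighbourhoods accounts for these distances was not tested.

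Most hosts held a single CTCF summit. There were 2689 hosts with 1 member, 148 with 2, 14 with 3, 1 with 4 and 1 with 5. Members of the same host were a median of 749 bases apart (interval 699 to 856, range 236 to 8653, n = 183 spacings). The 164 hosts with several members had a median width of 2235.5 bases, and those with 1 member 1284 bases. The hosts with 4 and 5 members are on the unplaced contig gl000220, and on assembled chromosomes none held more than 3.

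Of the 11 hosts with 3 members on assembled chromosomes, the widest spans 12.6 kb at chromosome 1, 156089699 to 156102305. Its summits, at 156093389, 156095894 and 156100313, had fold enrichments of 7.36, 13.6 and 17.7 and lay 300, 2805 and 7224 bases from the H3K27ac summit. The next, at chromosome 19, 1247344 to 1257632, had summits at 1248293, 1249040 and 1250742 with folds of 14.4, 21.2 and 5.75. The third, at chromosome 2, 232570509 to 232577591, combined folds of 19.3, 5.47 and 20.5, with the weak site in the middle. The fourth, at chromosome 20, 48806524 to 48811519, had folds of 5.81 to 11.2, and the fifth, at chromosome 17, 42294641 to 42298961, folds of 5.18 to 9.59. In none of these 5 hosts did a CTCF summit come within 200 bases of the H3K27ac summit.

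A few members stood alone. The most isolated, at chromosome 5, 84958625 to 84958813 (fold 7.76, 26 fragments), was 456 kb from the next CTCF summit and 13 bases inside the edge of its host. The next was at chromosome 10, 3823664 to 3823993 (fold 15.9), 314 kb from another summit. The third was at chromosome 6, 14711355 to 14711609 (fold 7.15), also 314 kb from another.

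Along the genome, the share of CTCF summits that were members followed how much of a chromosome was acetylated. On the autosomes 2960 of 34750 CTCF summits (8.52%) were members. The share was highest on chromosome 19, where 216 of 1563 summits were members (13.8%, interval 12.2 to 15.6), followed by chromosome 17 (11.9%) and chromosome 16 (11.1%). It was lowest on chromosome 18 (36 of 724, 4.97%), chromosome 13 (5.08%) and chromosome 4 (5.20%). Across the 22 autosomes, the share was set against the percent of the span between a chromosome's outermost CTCF summits that H3K27ac peaks take up. Pearson r was 0.81 and Spearman rho 0.83. The points share both libraries and, through the rule, the H3K27ac list. Chromosome 22 was an exception, with 3.75% of its span acetylated and a share of 8.04% (interval 6.31 to 10.2). On chromosome 17, with its share of 11.9%, 3.89% of the span was acetylated.

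Counted per Mb of H3K27ac peak, members varied less between chromosomes. There were 70.0 members per acetylated Mb on the autosomes together, 75.04 on chromosome 19 (interval 65.4 to 85.7), 66.5 on chromosome 13 (interval 46.1 to 93.0), 59.8 on chromosome 4 and 51.4 on chromosome 18 (interval 36.0 to 71.2). The extremes among the autosomes were chromosome 22, at 46.3 (interval 35.4 to 59.5), and chromosome 11, at 77.9 (interval 66.8 to 90.3). Against the acetylated percent of the span between the outermost CTCF summits this density had a Pearson r of −0.03 and a Spearman rho of 0.21. Chromosome X had 33 members, 4.08% of its CTCF summits, and 64.7 per acetylated Mb (interval 44.5 to 90.8), which includes the value of the autosomes. Chromosome Y had 1.

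**Figure D5:**
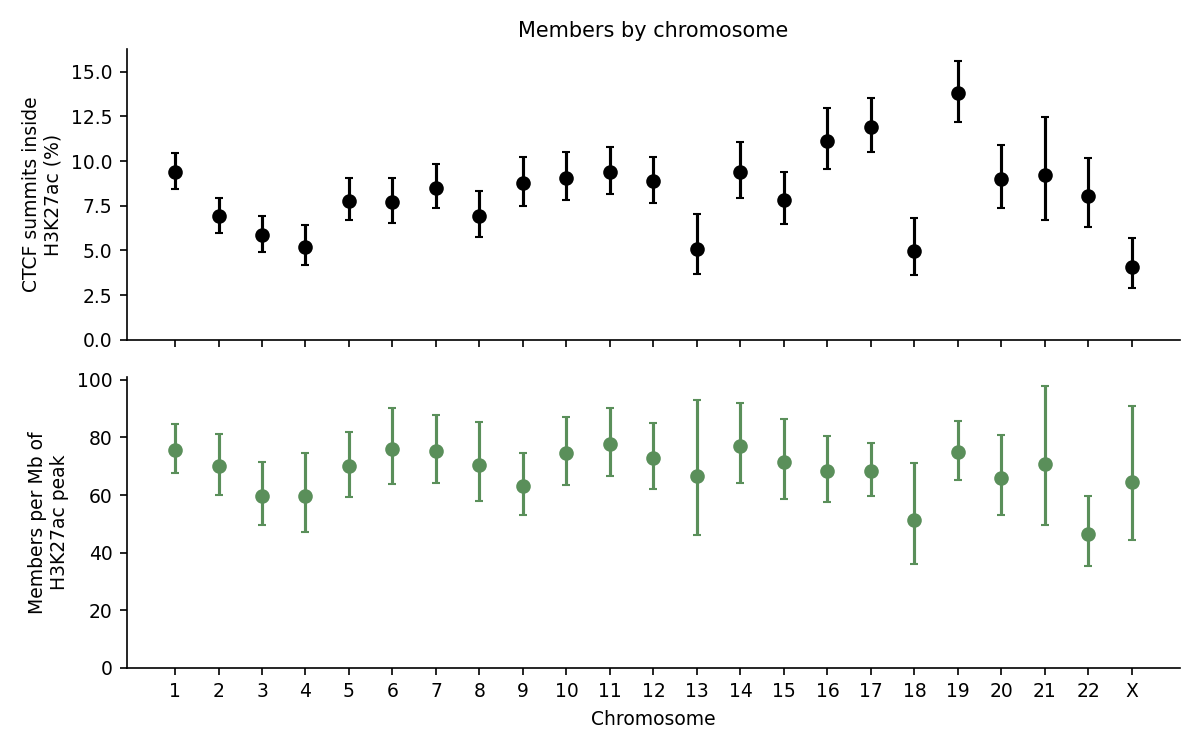
Percent of CTCF summits inside an H3K27ac peak (upper panel, Wilson 95% intervals) and members per Mb of H3K27ac peak (lower panel, exact Poisson 95% intervals) on each autosome and chromosome X. The share runs from 4.08% on chromosome X to 13.8% on chromosome 19, and the density from 46.3 on chromosome 22 to 77.9 on chromosome 11.

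Members were unevenly spread within chromosomes too. Of 2786 windows of 1 Mb with a CTCF summit, 1219 (43.8%) held a member, and the 149 windows (5.35%) with 5 or more held 1113 of the 2994 members on assembled chromosomes (37.2%). These windows were picked for their members, and they held 13.5% of all CTCF summits on those chromosomes (4825 of 35690). The fullest was chromosome 19, 1000001 to 2000000, with 23 members among 61 CTCF summits. It was followed by chromosome 17, 73000001 to 74000000, with 21 of 50, and by chromosome 20, 62000001 to 63000000, and chromosome 11, 64000001 to 65000000, with 18 each of 38 and 49.

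Outside the assembled chromosomes lay 42 members, of which 33 were on gl000220, a contig that carries ribosomal DNA. There 33 of 42 CTCF summits (78.6%, interval 64.1 to 88.3) were members. Their median CTCF fold was 2.34, and the median local background on the contig was 30.2 times the genome-wide level. Its hosts with 4 and 5 members were 3159 and 14040 bases wide with H3K27ac folds of 2.77 and 2.40. The part of that background in these peaks was not tested. On the haplotype contigs of chromosome 6, 6 of 214 CTCF summits were members.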

How the data were processed

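CTCF and H3K27ac peaks of DU145 were used, each list from 1 library; input libraries were not analysed here. Bowtie, MACS2 and hg19 are named in the submitters' processing notes; versions, settings and background library: not given in the sources used here. The authors deposited for each peak a start, an end, a summit offset, a whole-number score (10 times the −log10 q), a fold enrichment (a linear ratio to local background), and −log10 p and q-values, of which the smallest −log10 q rounds to 1.31 in each. Fold enrichment is the authors' value and was compared within 1 list only.

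A member is a CTCF peak whose summit (start plus offset) lies inside an H3K27ac peak; H3K27ac peaks did not overlap each other. Fragments at each summit and the local background were solved from fold and −log10 p, with 1 added to both parts of the fold and fragment numbers whole within 0.03 after scaling (0.911 for CTCF, 1 for H3K27ac). This solved 100% of CTCF and 99.7% of H3K27ac peaks, with medians of 45 and 23 fragments, and a lowest background of 2.18 and 3.18 taken as genome-wide. Shares have Wilson and medians order-statistic 95% intervals, densities and fragment numbers exact Poisson ones. All describe counting in these lists, not variation between cultures. Edge densities count bases by distance to the nearest edge. Python 3.11.15, numpy 2.4.6, pandas 2.3.3 and scipy 1.17.1 were used, and the steps were tested on simulated data. Named regions are the members with the highest CTCF fold, nearest an edge, in the strongest hosts, nearest a host summit and farthest from other CTCF summits, and the hosts with the most members, all on assembled chromosomes. The members and measures were chosen with earlier results of these data known. Genes and sequences in hg19 were not used here.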

Additional observations from a re-analysis of the deposited data

How the results depend on the processing

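Of 63 alternatives, 32 kept their value within its interval, or a count within 1.5 times; assembled chromosomes only kept all that it was run on. Those of positions by strength and of local background were chosen after seeing the data. No paired analysis was possible because each antibody has 1 library. The 3036 members became 1955 with a −log10 q of 10 or more in both lists, 5121 if any shared base counted, and 767 with genome-wide background only. The strict lists also gave a share on chromosome 19 of 9.80%, 417 bases to the edge, 301 to the host summit, widths of 329 (CTCF) and 1464 bases (hosts), a CTCF fold of 12.1, 13066 bases to the next CTCF summit, and 6.45% of weak members within 100 bases of the host summit. The members are fewer and stronger by construction. Joining H3K27ac peaks up to 500 bases apart kept all 3036 members and added 609. The chromosome 19 share was then 16.1%, the central share 59.7%, the distances 531 bases to the edge and 351 to the host summit, the host width 1776 bases and the CTCF fold 9.45. Within 100 bases of the host summit were then 3.08% of strong and 14.3% of weak members, and within 100 bases of an edge 18.9% of strong members. Hosts of at least 1 kb gave a central share of 59.95%, 525 bases to the edge, 350 to the host summit, a host width of 1758 bases, 2.97% of strong and 12.2% of weak members near the host summit, and 18.01% of strong members near an edge. With 1 member per host the CTCF fold was 9.12 and the next CTCF summit 10590 bases away. At the genome-wide background 22.6% of weak members were near the host summit and 41.4% of strong members near an edge. The cause of these last shifts was not tested. Where peaks rest on as few as 10 fragments, a summit's place is least certain.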
